A study of Mus musculus with 16 samples.

Results

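The mitochondrial machinery of oxidative phosphorylation was followed at the RNA level in mouse colon, small intestine and tumours of both. Members were taken by name: every bead array probe whose annotated gene symbol starts with Nduf (complex I), Sdh followed by a to d (complex II), Uqcr (complex III), Cox4 to Cox8 (complex IV) or Atp5 (complex V). Of 25697 probes on the array list, 111 for 89 genes met this rule, and 98 probes for 82 genes were detected (detection p under 0.05) on at least 2 of the 14 arrays used. These 98 stand among 16458 probes tested, and the 82 genes among 11230. By complex, 49 probes were for complex I, 9 for complex II, 7 for complex III, 17 for complex IV and 16 for complex V. The names also take in 10 probes for 9 assembly factors (Ndufaf and Sdhaf genes), which build complexes I and II without staying in them, and the pseudogene Ndufs5-ps. No measured value beyond detection entered this rule, but the set itself was chosen with earlier results of these data known.

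The study measured RNA of dissected, snap-frozen intestinal mucosa and tumours on Illumina bead arrays, 1 array per sample, to ask how LIN28B, an RNA-binding protein that blocks maturation of let-7 microRNAs, acts beside Apcmin, an allele that truncates the Wnt pathway inhibitor Apc. All mice were of 1 mixed background (B6/129/Balbc/CD1) and all, controls included, received doxycycline from 6 to 7 weeks of age, the inducer of the iLIN28B transgene. The promoter and the cells that drive iLIN28B are not given in the sources used here. The colon groups were normal mucosa of wt mice (n = 2), adenomas of Apcmin/+ mice (n = 2) and adenomas of iLIN28B; Apcmin/+ mice (n = 3), called LIN28B/Apcmin here. The small intestinal groups were normal wt mucosa (n = 1), adenoma or adenocarcinoma of iLIN28B mice (n = 2), Apcmin/+ adenomas (n = 2) and iLIN28B; Apcmin/+ adenomas (n = 2). Mice were 3 months old except the iLIN28B mice, which were 8 months old, so LIN28B and age cannot be told apart there. The title of replicate 2 of the small intestinal LIN28B/Apcmin group names mucosa beside tumour. Among the small intestinal titles, that of LIN28B replicate 2 alone reads Jej, and all others read D. The titles do not spell these letters out, and the LIN28B group mixes both.

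The sample titles open with a number that may stand for an animal. All 3 LIN28B/Apcmin colon arrays carry 2135, both LIN28B arrays carry 1737, and the number 1032 is shared by wt colon replicate 2 and the wt small intestinal array. The p-values therefore measure the spread between these samples, which may be technical or lie within 1 animal. Of 16 arrays, 14 had 48.3% to 56.5% of probes detected. The others, LIN28B/Apcmin colon replicate 4 with 12% and wt small intestinal replicate 1 with 5.28%, were left out. LIN28B/Apcmin colon replicate 3 had lost 1985 signals, among them 4 of the 98 member probes.

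Oxidative phosphorylation passes electrons from NADH (complex I) and succinate (complex II) through complexes III and IV to oxygen, and the proton gradient so built drives ATP synthesis by complex V. Most subunits are encoded in the nucleus, and those of the mitochondrial genome were not analysed here. Differentiated colonocytes are known for a high oxidative demand, since they burn butyrate from the lumen. Several complex IV subunits come in isoforms, of which Cox7a1, Cox6a2 and Cox8b are those of heart and skeletal muscle.

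Members were lower in colon tumours than in wt colon. In Apcmin colon tumours 15 of 98 member probes fell (adjusted p under 0.05 over all probes in limma, "called" hereafter). Over all 16458 probes 6.89% were called lower in this comparison, against 15.3% of the members. Limma called 0 members higher, against 6.07% of all probes, with 1 at an unadjusted p under 0.05. The log2 difference was below 0 for 89 of the 98, and the median was -0.41, against 0.02 over all probes. In 76 members both tumour arrays read below both wt arrays, where 31.9% of all probes did so. In LIN28B/Apcmin colon tumours, set against the same wt arrays, 24 member probes fell and 2 rose. That was 24.5% called lower, against 12.6% of all probes, and 2.04% called higher, against 12.5%. The median was -0.3, against 0.04 over all probes, with 80 members below 0. In 53 members all LIN28B/Apcmin tumour arrays with a signal read below both wt arrays, where 25.7% of all probes did so. In bulk tissue, fewer cells of a type and less RNA per cell cannot be told apart.

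Array by array, the median deviation of the 98 members from their own means over 14 arrays was 0.15 and 0.19 on the log2 scale in wt colon. It was -0.22 and -0.18 in Apcmin colon tumours and -0.17, -0.13 and -0.13 in LIN28B/Apcmin colon tumours. All 5 colon tumour arrays lay below both wt colon arrays. In the small intestine it was 0.17 in wt, 0.09 and 0.05 in LIN28B, 0.08 and 0.08 in Apcmin and -0.08 and 0.14 in LIN28B/Apcmin samples. Those arrays all lay above the colon tumours. For all probes, the same measure stayed between -0.06 and 0.03. Quantile normalization gives the arrays the same distribution and so keeps this measure near 0, which makes it no independent control.

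**Figure D1:**
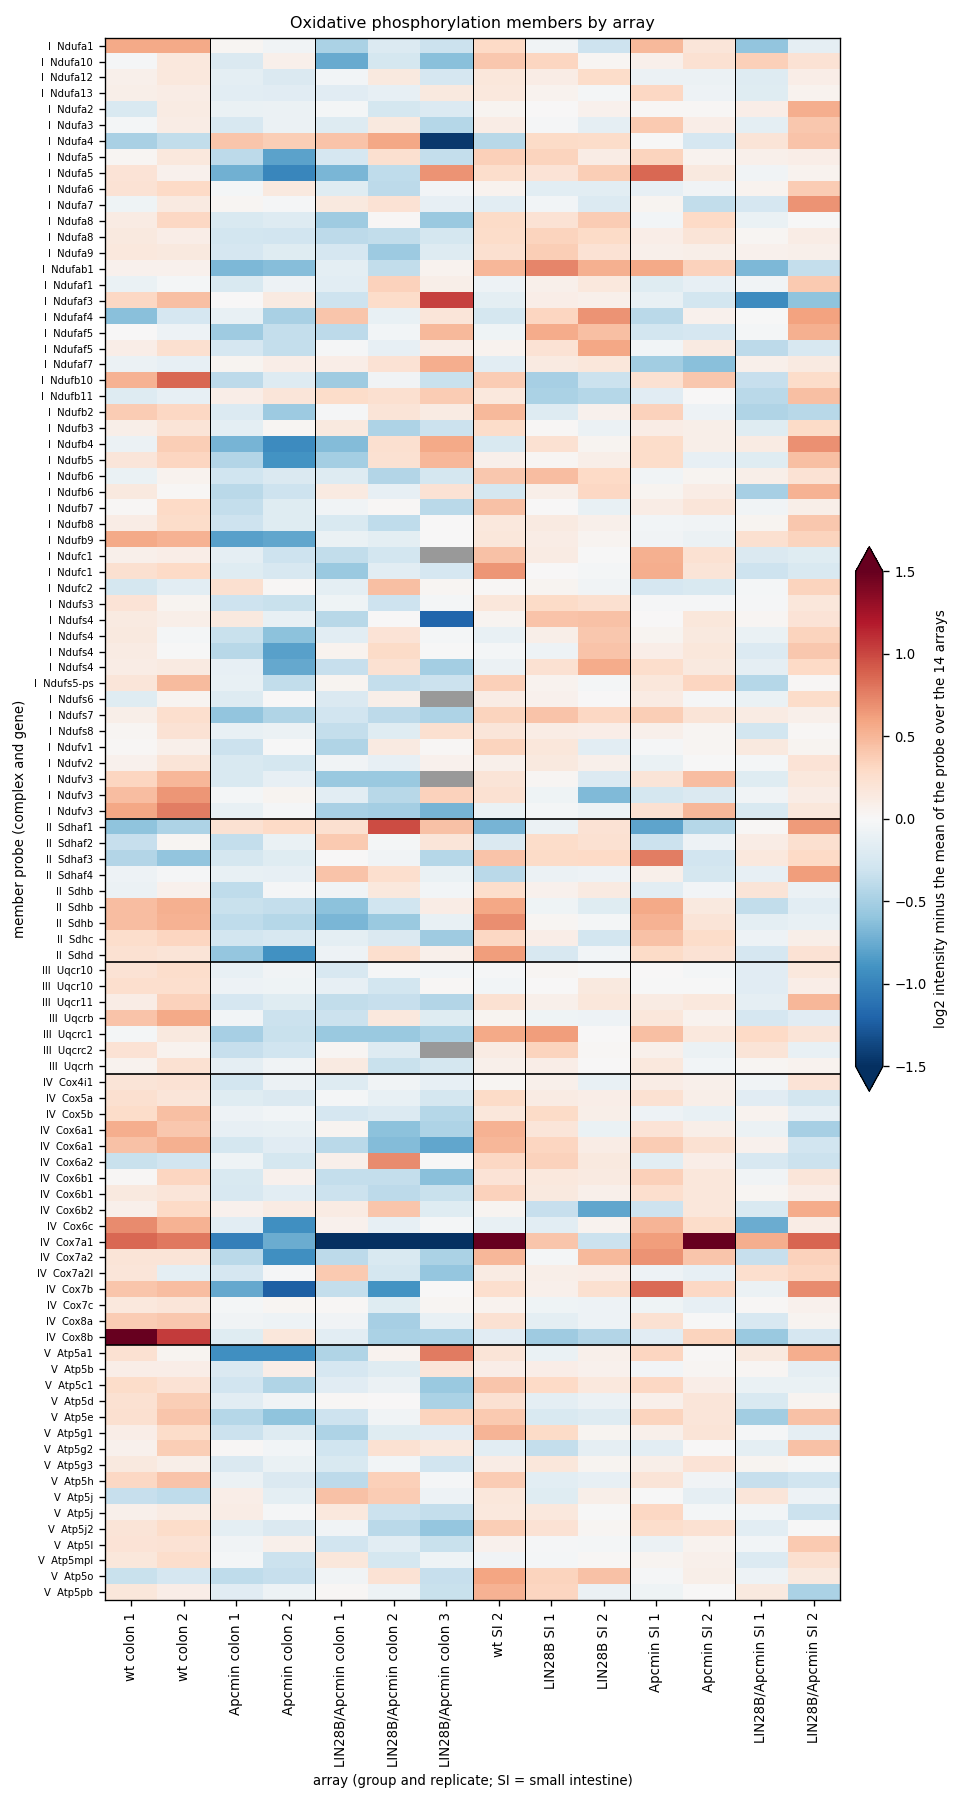
Heat map of 98 member probes (rows, by complex) on 14 arrays (columns), coloured by log2 intensity minus the probe's mean over the arrays; grey marks a missing signal. The wt colon columns are mostly red, with a median of 0.15 and 0.19, and the Apcmin colon columns mostly blue, with -0.22 and -0.18.

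The counts of called members rest on few arrays. Without wt colon replicate 1 or 2, 1 and 2 members were called in Apcmin colon tumours, and without Apcmin colon replicate 1 or 2, 3 and 2. For LIN28B/Apcmin colon tumours the counts without wt colon replicate 1 and 2 were 7 and 4. The median held between -0.41 and -0.34 in the former comparison and between -0.34 and -0.3 in the latter. With the LIN28B/Apcmin tumour arrays, and all others that share a title number and group, averaged first, 6 members were called in LIN28B/Apcmin tumours. With the 2 left-out arrays kept, 0 members were called in limma in either comparison. The values the authors deposited were also refitted, without those 2 arrays, and 36 and 53 members were called. The share of all probes called in that refit is not given here, so 36 and 53 cannot be set against a background.

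RefSeq promoters (GRCm38.p6, 250 bases before to 50 after the start) were found for 71 of the 82 member genes. They were searched on both strands for GCGCATGC, letters from the motif of NRF1, CCGGAAGT, of the ETS family that includes GABP, and AAGATGGC, of YY1, all factors known to act at nuclear genes for respiration. The NRF1 letters read nearly the same on both strands, so that a match and its reverse complement can overlap. They were in 14.1% of member genes (10 of 71) and in 3.94% of 17492 protein coding genes. Unlike the members, the protein coding genes were not filtered by detection on these arrays. The YY1 letters were in 14.1% and 3.57%, and the ETS letters in 7.04% and 5.69%. Of 21 genes with a promoter that were called lower in a colon tumour group, 9 held at least 1 of them, and of the other 50 genes 15 did. Promoters of 4 genes called lower are shown, with the letters in capitals: Cox6a1 holds those of NRF1, Uqcr11 those of ETS and NRF1, Ndufs7 those of YY1 near its start, and Cox7a1, a muscle isoform, holds none in this window.
Cox6a1 (chr5:115348909-115349208, minus strand): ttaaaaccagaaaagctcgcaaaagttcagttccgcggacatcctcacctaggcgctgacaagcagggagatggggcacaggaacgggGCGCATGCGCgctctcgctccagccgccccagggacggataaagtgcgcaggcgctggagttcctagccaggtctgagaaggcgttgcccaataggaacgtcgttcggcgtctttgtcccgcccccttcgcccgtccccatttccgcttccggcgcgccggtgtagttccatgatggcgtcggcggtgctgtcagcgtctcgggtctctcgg
Uqcr11 (chr10:80406772-80407071, minus strand): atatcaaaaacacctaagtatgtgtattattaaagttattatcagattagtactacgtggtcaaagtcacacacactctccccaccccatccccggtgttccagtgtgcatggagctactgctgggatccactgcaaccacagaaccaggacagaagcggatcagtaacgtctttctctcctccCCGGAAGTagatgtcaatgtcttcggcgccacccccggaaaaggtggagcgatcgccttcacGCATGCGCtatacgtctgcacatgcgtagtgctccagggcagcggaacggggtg
Ndufs7 (chr10:80249199-80249498, plus strand): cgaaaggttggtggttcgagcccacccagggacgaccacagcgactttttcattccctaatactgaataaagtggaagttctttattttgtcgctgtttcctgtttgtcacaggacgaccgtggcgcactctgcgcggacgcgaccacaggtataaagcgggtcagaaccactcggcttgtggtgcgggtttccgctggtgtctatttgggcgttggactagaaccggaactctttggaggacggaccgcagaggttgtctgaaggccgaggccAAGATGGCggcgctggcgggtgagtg
Cox7a1 (chr7:30183921-30184220, plus strand): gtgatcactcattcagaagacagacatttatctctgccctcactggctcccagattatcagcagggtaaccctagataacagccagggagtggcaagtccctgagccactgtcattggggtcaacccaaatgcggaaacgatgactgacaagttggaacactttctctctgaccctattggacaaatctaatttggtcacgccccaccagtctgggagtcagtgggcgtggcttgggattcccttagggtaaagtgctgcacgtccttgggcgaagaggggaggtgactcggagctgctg
A match describes the letters and not a bound site.

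Complex I, the NADH dehydrogenase, had 49 member probes. Of these, 6 fell in Apcmin colon tumours (median -0.41) and 9 in LIN28B/Apcmin colon tumours (median -0.22), against 6.89% and 12.6% of all probes called lower. Limma called 0 higher, against 6.07% and 12.5% of all probes, with 0 and 2 at an unadjusted p under 0.05. Ndufb9, an accessory subunit of the membrane arm, had log2 signals of 9.43 and 9.38 in wt colon, 8.05 and 8.09 in Apcmin colon tumours and 8.76, 8.72 and 8.88 in LIN28B/Apcmin colon tumours. The small intestinal Ndufb9 signals were 9.03 in wt, 8.97 and 8.91 in LIN28B, 8.82 and 8.78 in Apcmin and 9.1 and 9.2 in LIN28B/Apcmin samples. Apcmin colon tumours read below every other array, and all 5 colon tumour arrays lay below wt colon. Ndufb9 fell by 1.34 ± 0.16 (log2, SE) in Apcmin colon tumours, a 2.52-fold lower signal (adjusted p = 0.000457), and by 0.62 ± 0.15 in LIN28B/Apcmin colon tumours (adjusted p = 0.0101). It was the 1 member whose call in Apcmin colon tumours held whichever array was left out.

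Ndufb10, another subunit of the membrane arm, read 8.32 and 8.66 in wt colon, 7.41 and 7.61 in Apcmin colon tumours and 7.27, 7.76 and 7.48 in LIN28B/Apcmin colon tumours on the log2 scale. Its small intestinal values were 8.18 in wt, 7.31 and 7.48 in LIN28B, 8.03 and 8.21 in Apcmin and 7.47 and 8.08 in LIN28B/Apcmin samples. The colon tumour arrays did not overlap wt colon, and the difference was -0.98 ± 0.25 in Apcmin (adjusted p = 0.0243) and -0.99 ± 0.22 in LIN28B/Apcmin colon tumours (adjusted p = 0.00866). Ndufb2, also of the membrane arm, read 7.78 and 7.71 in wt colon, 7.19 and 6.85 in Apcmin colon tumours and 7.39, 7.59 and 7.52 in LIN28B/Apcmin colon tumours, a difference of -0.72 ± 0.2 for Apcmin (adjusted p = 0.0411). In the small intestine, Ndufb2 read 7.89 in wt, 7.21 and 7.46 in LIN28B, 7.75 and 7.33 in Apcmin and 6.95 and 6.99 in LIN28B/Apcmin samples, with wt highest.

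Ndufv3, an accessory subunit of the module that oxidises NADH, has 3 probes. Probe ILMN_3008277 had log2 signals of 11.79 and 11.99 in wt colon, 11.11 and 11.2 in Apcmin colon tumours and 10.73, 10.71 and 10.52 in LIN28B/Apcmin colon tumours. The small intestinal signals of this probe were 11.11 in wt, 11.19 and 11.14 in LIN28B, 11.44 and 11.71 in Apcmin and 10.99 and 11.39 in LIN28B/Apcmin samples. The 3 colon groups were ordered without overlap, wt highest and LIN28B/Apcmin lowest. The difference from wt was -0.74 ± 0.2 in Apcmin (adjusted p = 0.0316) and -1.24 ± 0.18 in LIN28B/Apcmin colon tumours (adjusted p = 0.00061). Probe ILMN_2668977 read 11.93 and 12.11 in wt colon, 11.38 and 11.49 in Apcmin colon tumours and 11.05 and 11.06 in LIN28B/Apcmin colon tumours (replicate 3 missing), and fell by 0.97 ± 0.2 in LIN28B/Apcmin colon tumours (adjusted p = 0.00643). The third probe, ILMN_2688822, read 5.94 and 6.14 in wt colon, 5.45 and 5.52 in Apcmin colon tumours and 5.32, 5.07 and 5.83 in LIN28B/Apcmin colon tumours, and was not called in either group.

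Ndufs7, a core subunit that carries an iron-sulphur cluster, read 11.82 and 11.98 in wt colon, 11.14 and 11.27 in Apcmin colon tumours and 11.44, 11.34 and 11.27 in LIN28B/Apcmin colon tumours in log2 signal. For Ndufs7 the small intestinal values were 12.06 in wt, 12.15 and 12.04 in LIN28B, 12.1 and 11.92 in Apcmin and 11.85 and 11.81 in LIN28B/Apcmin samples. Every colon tumour array lay below every other array, and the difference from wt colon was -0.7 ± 0.17 in Apcmin (adjusted p = 0.0213) and -0.55 ± 0.15 in LIN28B/Apcmin tumours (adjusted p = 0.0242). The other measured core subunits had no call in the colon against wt. Ndufs3 read 11.27 and 11.11 in wt colon, 10.75 and 10.74 in Apcmin colon tumours and 11, 10.76 and 11.04 in LIN28B/Apcmin colon tumours, with tumours below wt. Ndufs8 read 11.5 and 11.69 in wt colon, 11.36 and 11.39 in Apcmin colon tumours and 11.12, 11.3 and 11.72 in LIN28B/Apcmin colon tumours. For Ndufs8 the LIN28B/Apcmin arrays spanned the range of wt colon.

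Ndufv1, which binds NADH and the flavin, read 12.29 and 12.36 in wt colon, 11.95 and 12.27 in Apcmin colon tumours and 11.82, 12.41 and 12.29 in LIN28B/Apcmin colon tumours. Ndufv2, which carries an iron-sulphur cluster, read 12.21 and 12.34 in wt colon, 11.91 and 11.88 in Apcmin colon tumours and 12.09, 12.02 and 12.2 in LIN28B/Apcmin colon tumours. All tumour arrays lay below wt colon for Ndufv2, while the LIN28B/Apcmin arrays spread around wt for Ndufv1. In the small intestine Ndufs3 read 11.24 in wt, 11.36 and 11.31 in LIN28B, 11.05 and 11.05 in Apcmin and 11.05 and 11.24 in LIN28B/Apcmin samples. Ndufs8 there read 11.66 in wt, 11.59 and 11.57 in LIN28B, 11.56 and 11.5 in Apcmin and 11.21 and 11.5 in LIN28B/Apcmin samples. For Ndufs3 the LIN28B samples read highest, and for Ndufs8 the LIN28B/Apcmin samples lay at or below all others. Ndufv1 read 12.61 in wt, 12.45 and 12.12 in LIN28B, 12.26 and 12.31 in Apcmin and 12.43 and 12.33 in LIN28B/Apcmin samples in small intestinal tissue. Ndufv2 read 12.22 in wt, 12.29 and 12.22 in LIN28B, 12.04 and 12.14 in Apcmin and 12.11 and 12.35 in LIN28B/Apcmin samples in the same samples.

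Ndufab1, the mitochondrial acyl carrier protein, which also serves the making of lipoic acid, had its lowest signals in another tumour group in each organ. Its log2 signals were 5.79 and 5.79 in wt colon, 5.06 and 5.09 in Apcmin colon tumours and 5.58, 5.36 and 5.77 in LIN28B/Apcmin colon tumours. Those of the small intestine were 6.23 in wt, 6.46 and 6.26 in LIN28B, 6.29 and 6.07 in Apcmin and 5.05 and 5.36 in LIN28B/Apcmin samples. In the colon the Apcmin tumours were lowest, and in the small intestine the LIN28B/Apcmin tumours were lowest, with no overlap with any other small intestinal array. Ndufab1 fell in Apcmin colon tumours against wt (-0.72 ± 0.2, adjusted p = 0.0374). Its only probe was detected on all 14 arrays but was dim. The lowest signals were close to those of the Sdhb probe ILMN_2592389, which had a mean of 5.06 in wt colon and was detected on 12 arrays.

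Ndufb3 and Ndufb8, accessory subunits whose mRNAs LIN28A is known to bind in other mouse cells, were followed for that reason. Ndufb3 read 10.61 and 10.71 in wt colon, 10.38 and 10.55 in Apcmin colon tumours and 10.68, 10.06 and 10.2 in LIN28B/Apcmin colon tumours. Small intestinal Ndufb3 read 10.8 in wt, 10.54 and 10.43 in LIN28B, 10.63 and 10.61 in Apcmin and 10.34 and 10.81 in LIN28B/Apcmin samples. The LIN28B/Apcmin colon arrays of Ndufb3 overlapped both other colon groups. Ndufb8 read 12.79 and 12.96 in wt colon, 12.37 and 12.51 in Apcmin colon tumours and 12.46, 12.3 and 12.69 in LIN28B/Apcmin colon tumours. Small intestinal Ndufb8 read 12.85 in wt, 12.82 and 12.76 in LIN28B, 12.64 and 12.63 in Apcmin and 12.72 and 13.1 in LIN28B/Apcmin samples. Neither was called in a comparison with and without LIN28B: in the colon, LIN28B/Apcmin minus Apcmin was -0.15 ± 0.21 for Ndufb3 and 0.04 ± 0.18 for Ndufb8.

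Ndufa4, named as complex I but now known as a subunit of complex IV, read higher in most tumours. Its log2 signals were 12.32 and 12.44 in wt colon, 13.23 and 13.18 in Apcmin colon tumours and 13.24, 13.39 and 11.36 in LIN28B/Apcmin colon tumours. Small intestinal Ndufa4 read 12.39 in wt, 13.1 and 13.09 in LIN28B, 12.8 and 12.56 in Apcmin and 13 and 13.24 in LIN28B/Apcmin samples. Replicate 3 of LIN28B/Apcmin colon stood apart below all arrays. The 4 other colon tumour arrays read above wt colon, with a difference of 0.82 ± 0.51 for Apcmin that was not called (adjusted p = 0.341).

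Of other complex I subunits, Ndufa1 fell by 0.9 ± 0.19 (adjusted p = 0.00565) in LIN28B/Apcmin colon tumours against wt. Ndufa10 fell by 0.62 ± 0.2, Ndufc1 (probe ILMN_2983247) by 0.59 ± 0.18 and Ndufa8 (probe ILMN_2880067) by 0.46 ± 0.14 there. These complex I accessory subunits passed the test with adjusted p from 0.0307 to 0.04 for Ndufc1, Ndufa8 and Ndufa10.

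Complex II, succinate dehydrogenase, is both an enzyme of the citric acid cycle and a way into the electron chain. Its 9 probes include 4 for assembly factors. The median deviation of the 9 was -0.08 and 0.06 in wt colon and -0.34 and -0.18 in Apcmin colon tumours. In LIN28B/Apcmin colon tumours it was -0.06, -0.04 and -0.05, within the range of wt colon. That median mixes subunits with assembly factors. Of the assembly factors Sdhaf1 rose there, and probes of the subunits Sdhb and Sdhc fell, so the median does not stand for the subunits. The iron-sulphur subunit Sdhb has 3 probes. Probe ILMN_2769065 read 10.7 and 10.76 in wt colon, 9.85 and 9.81 in Apcmin colon tumours and 9.55, 9.69 and 10.13 in LIN28B/Apcmin colon tumours. Its small intestinal readings were 10.94 in wt, 10.27 and 10.21 in LIN28B, 10.76 and 10.44 in Apcmin and 10.09 and 10.13 in LIN28B/Apcmin samples. Colon tumours did not overlap wt colon, and Sdhb fell by 0.9 ± 0.21 in Apcmin (adjusted p = 0.0181) and by 0.94 ± 0.19 in LIN28B/Apcmin tumours (adjusted p = 0.00489). Probe ILMN_2769064 read 10.53 and 10.6 in wt colon, 9.74 and 9.72 in Apcmin colon tumours and 9.46, 9.78 and 10.18 in LIN28B/Apcmin colon tumours, and small intestinal values for it were 10.65 in wt, 10.01 and 9.9 in LIN28B, 10.64 and 10.22 in Apcmin and 9.71 and 9.91 in LIN28B/Apcmin samples. It was called lower in both as well (-0.84 ± 0.24 and -0.76 ± 0.22). The third, ILMN_2592389, read 4.98 and 5.13 in wt colon, 4.69 and 5.06 in Apcmin colon tumours and 5.02, 5.23 and 5.03 in LIN28B/Apcmin colon tumours, was detected on 12 arrays and was not called.

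Sdhd, a membrane anchor of the complex, read 8.72 and 8.69 in wt colon, 7.92 and 7.59 in Apcmin colon tumours and 8.42, 8.74 and 8.57 in LIN28B/Apcmin colon tumours. Small intestinal Sdhd read 9.12 in wt, 8.26 and 8.46 in LIN28B, 8.78 and 8.71 in Apcmin and 8.24 and 8.72 in LIN28B/Apcmin samples. The Apcmin colon tumours were below all other arrays (-0.95 ± 0.21 against wt colon, adjusted p = 0.0143), while the LIN28B/Apcmin colon tumours overlapped wt colon (-0.12 ± 0.19). Sdhc, the other anchor, read 11.68 and 11.74 in wt colon, 11.14 and 11.18 in Apcmin colon tumours and 11.27, 11.2 and 10.89 in LIN28B/Apcmin colon tumours. Small intestinal Sdhc read 11.73 in wt, 11.52 and 11.14 in LIN28B, 11.86 and 11.69 in Apcmin and 11.34 and 11.5 in LIN28B/Apcmin samples. Its fall of 0.59 ± 0.18 was called in LIN28B/Apcmin colon tumours (adjusted p = 0.035).

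Of 10 assembly factor probes, limma called 0 lower in either colon comparison with wt (1 and 0 at an unadjusted p under 0.05), and 1 higher in LIN28B/Apcmin tumours. Of 87 subunit probes 15 and 24 fell. Over all probes 6.89% and 12.6% were called lower, and 12.5% higher in LIN28B/Apcmin tumours. With 10 probes, the counts of the assembly factors lie near those shares. The median of the assembly factors was -0.07 in Apcmin and 0.29 in LIN28B/Apcmin colon tumours, against -0.42 and -0.33 for the subunits. A difference between these kinds of gene was not tested. Sdhaf1, which helps insert iron-sulphur clusters into Sdhb, read 8.92 and 9.06 in wt colon, 9.75 and 9.82 in Apcmin colon tumours and 9.77, 10.5 and 9.97 in LIN28B/Apcmin colon tumours. Small intestinal Sdhaf1 read 8.83 in wt, 9.43 and 9.74 in LIN28B, 8.73 and 9.1 in Apcmin and 9.54 and 10.16 in LIN28B/Apcmin samples. The colon tumour arrays were all above wt colon, with a rise of 1.09 ± 0.25 in LIN28B/Apcmin tumours, 2.12-fold (adjusted p = 0.0102), and a difference of 0.79 ± 0.28 in Apcmin tumours that was not called (adjusted p = 0.088).

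Complex III, which passes electrons from ubiquinol to cytochrome c, had all 7 probes below 0 in both colon comparisons, with medians of -0.45 and -0.38. In Apcmin colon tumours 1 was called, and in LIN28B/Apcmin colon tumours 3, against 6.89% and 12.6% of all probes called lower. Uqcrb, a small subunit near the ubiquinone site, read 11.35 and 11.48 in wt colon, 10.88 and 10.6 in Apcmin colon tumours and 10.6, 11.08 and 10.74 in LIN28B/Apcmin colon tumours. Small intestinal Uqcrb read 10.96 in wt, 10.86 and 10.84 in LIN28B, 11.09 and 10.97 in Apcmin and 10.67 and 10.75 in LIN28B/Apcmin samples. It fell by 0.68 ± 0.2 in Apcmin (adjusted p = 0.0458) and by 0.61 ± 0.18 in LIN28B/Apcmin colon tumours (adjusted p = 0.0311). Uqcr11 fell by 0.61 ± 0.19 and Uqcrc1 by 0.59 ± 0.2 in the latter (adjusted p = 0.0394 and 0.0494).

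The core proteins Uqcrc1 and Uqcrc2 form the matrix side of complex III. Uqcrc1 read 11.67 and 11.84 in wt colon, 11.19 and 11.36 in Apcmin colon tumours and 11.14, 11.13 and 11.21 in LIN28B/Apcmin colon tumours. Small intestinal Uqcrc1 read 12.26 in wt, 12.31 and 11.7 in LIN28B, 12.14 and 11.85 in Apcmin and 11.99 and 11.89 in LIN28B/Apcmin samples. All 5 colon tumour arrays were below all others for Uqcrc1. Uqcrc2 read 13.11 and 12.95 in wt colon, 12.55 and 12.6 in Apcmin colon tumours and 12.92 and 12.7 in LIN28B/Apcmin colon tumours (replicate 3 missing). Small intestinal Uqcrc2 read 13.01 in wt, 13.23 and 12.91 in LIN28B, 12.97 and 12.81 in Apcmin and 13.09 and 12.78 in LIN28B/Apcmin samples. Uqcrc2 was not called in the colon against wt.

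Complex IV, cytochrome c oxidase, held the largest falls among the members in both colon comparisons with wt. In Apcmin colon tumours 5 of its 17 probes fell, with a median of -0.42 over the complex, and in LIN28B/Apcmin colon tumours 8 fell, with a median of -0.61. Of all probes 6.89% and 12.6% were called lower in these comparisons. Cox7a1, the muscle isoform of subunit VIIa, had log2 signals of 10.91 and 10.84 in wt colon, 9.03 and 9.3 in Apcmin colon tumours and 8.37, 7.82 and 8.33 in LIN28B/Apcmin colon tumours. The small intestinal Cox7a1 signals were 11.77 in wt, 10.46 and 9.73 in LIN28B, 10.68 and 11.93 in Apcmin and 10.59 and 10.93 in LIN28B/Apcmin samples. The 3 colon groups did not overlap, wt highest and LIN28B/Apcmin lowest, and every colon tumour array was below every small intestinal one. Cox7a1 fell by 1.71 ± 0.38 in Apcmin, 3.27-fold (adjusted p = 0.0137), and by 2.7 ± 0.35 in LIN28B/Apcmin colon tumours, 6.51-fold (adjusted p = 0.000284).

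Its paralogs were not called in the colon against wt. Cox7a2, the isoform of most tissues, read 8.49 and 8.49 in wt colon, 7.89 and 7.37 in Apcmin colon tumours and 7.9, 8.07 and 7.82 in LIN28B/Apcmin colon tumours. Small intestinal Cox7a2 read 8.8 in wt, 8.27 and 8.78 in LIN28B, 8.96 and 8.71 in Apcmin and 7.94 and 8.64 in LIN28B/Apcmin samples. Colon tumours were below wt colon, with differences of -0.86 ± 0.27 and -0.56 ± 0.25 that were not called. Cox7a2l, a related protein that joins complexes III and IV into supercomplexes, read 11.53 and 11.2 in wt colon, 11.09 and 11.33 in Apcmin colon tumours and 11.74, 11.07 and 10.76 in LIN28B/Apcmin colon tumours. Small intestinal Cox7a2l read 11.47 in wt, 11.44 and 11.45 in LIN28B, 11.27 and 11.22 in Apcmin and 11.6 and 11.65 in LIN28B/Apcmin samples. Its colon groups overlapped.

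Cox8b, the muscle isoform of subunit VIII, read 6.68 and 5.88 in wt colon, 4.64 and 4.99 in Apcmin colon tumours and 4.67, 4.34 and 4.36 in LIN28B/Apcmin colon tumours. Small intestinal Cox8b read 4.65 in wt, 4.29 and 4.39 in LIN28B, 4.65 and 5.16 in Apcmin and 4.27 and 4.58 in LIN28B/Apcmin samples. Both wt colon arrays stood above every other array. In all, it was detected on 4 arrays, among them both of wt colon, 1 Apcmin colon tumour and no LIN28B/Apcmin colon tumour. It fell by 1.46 ± 0.28 in Apcmin colon tumours (adjusted p = 0.00673), and was at least 2.77-fold lower in LIN28B/Apcmin colon tumours, where it was not above background (adjusted p = 0.000531). Cox8a, the isoform of most tissues, read 13.54 and 13.57 in wt colon, 13.11 and 13.08 in Apcmin colon tumours and 13.11, 12.67 and 13.06 in LIN28B/Apcmin colon tumours. Small intestinal Cox8a read 13.39 in wt, 13.01 and 13.08 in LIN28B, 13.4 and 13.15 in Apcmin and 12.92 and 13.2 in LIN28B/Apcmin samples. It fell by 0.61 ± 0.18 in LIN28B/Apcmin colon tumours (adjusted p = 0.0322).

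**Figure D2:**
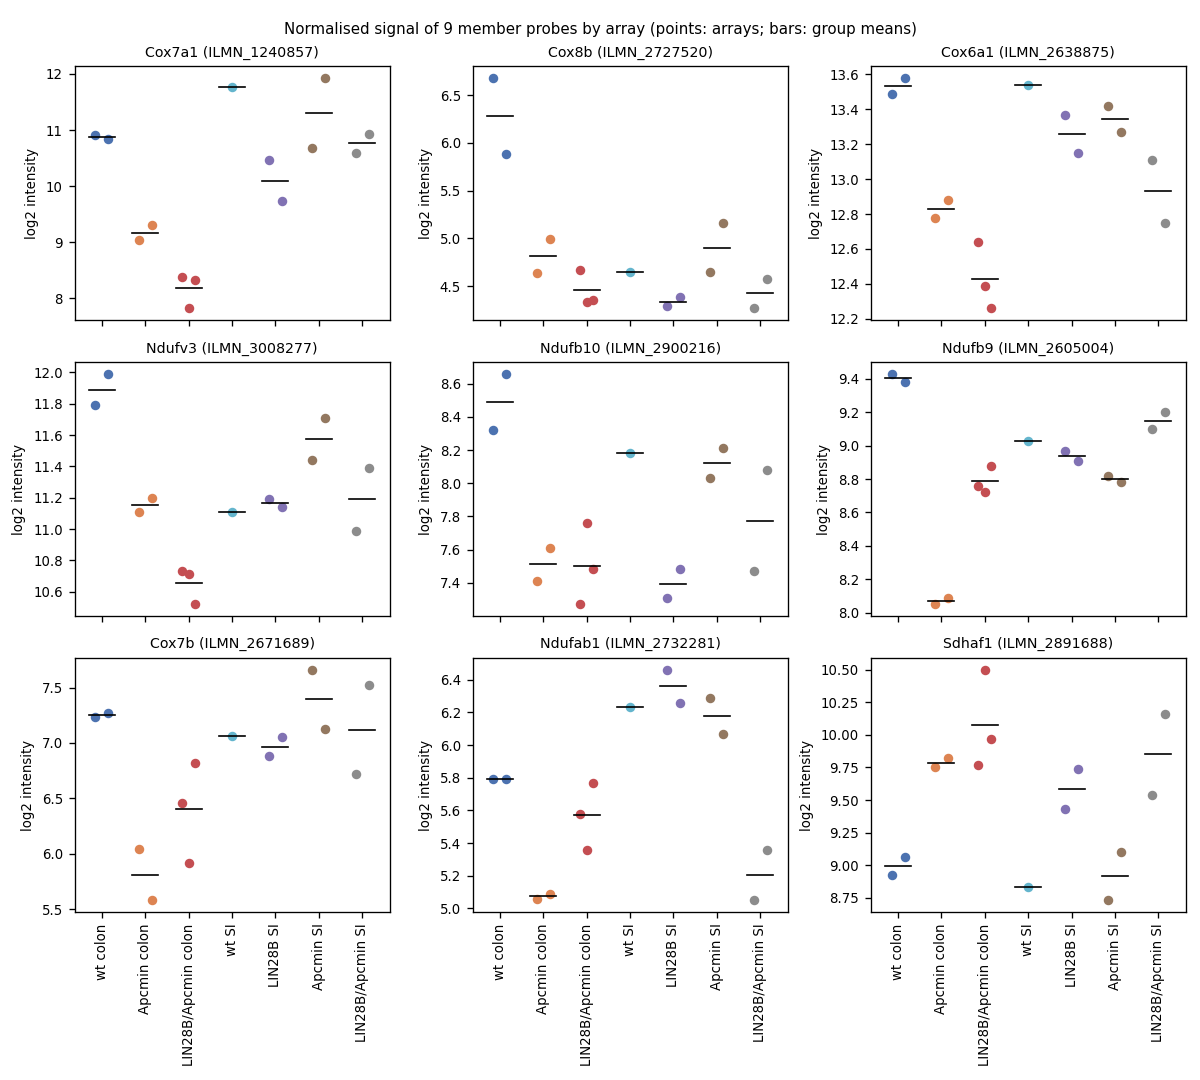
Log2 intensity of 9 member probes on each of 14 arrays (points), by group, with group means as bars; each panel has its own vertical axis. Cox7a1 and Ndufv3 step down from wt through Apcmin to LIN28B/Apcmin colon tumours without overlap, Ndufb9 is lowest in Apcmin colon tumours, and Sdhaf1 is higher in all 5 colon tumours than in wt colon.

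Cox6a1, the isoform of subunit VIa outside muscle, has 2 probes. Probe ILMN_2638875 read 13.49 and 13.58 in wt colon, 12.78 and 12.88 in Apcmin colon tumours and 12.64, 12.39 and 12.26 in LIN28B/Apcmin colon tumours. Its small intestinal values were 13.54 in wt, 13.37 and 13.15 in LIN28B, 13.42 and 13.27 in Apcmin and 13.11 and 12.75 in LIN28B/Apcmin samples. The colon groups did not overlap, and it fell by 0.71 ± 0.2 in Apcmin (adjusted p = 0.0395) and by 1.1 ± 0.18 in LIN28B/Apcmin tumours (adjusted p = 0.00133). Probe ILMN_2605400 read 13.24 and 13.1 in wt colon, 12.57 and 12.58 in Apcmin colon tumours and 12.74, 12.08 and 12.24 in LIN28B/Apcmin colon tumours, and small intestinal values were 13.21 in wt, 12.88 and 12.59 in LIN28B, 12.9 and 12.78 in Apcmin and 12.61 and 12.2 in LIN28B/Apcmin samples. It fell by 0.82 ± 0.22 in LIN28B/Apcmin colon tumours (adjusted p = 0.0192). Cox6a2, the muscle isoform, was detected on 5 arrays, and read 4.38 and 4.43 in wt colon, 4.65 and 4.46 in Apcmin colon tumours and 4.79, 5.43 and 4.7 in LIN28B/Apcmin colon tumours. Small intestinal Cox6a2 read 5.03 in wt, 5.06 and 4.86 in LIN28B, 4.55 and 4.82 in Apcmin and 4.47 and 4.39 in LIN28B/Apcmin samples. In the colon, Cox6a2 was above background only on LIN28B/Apcmin replicates 1 and 2, so its other colon values have no order, and it was not called.

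Cox7b and Cox6c, small subunits of the membrane part, were called in Apcmin colon tumours and not in LIN28B/Apcmin ones. Cox7b read 7.23 and 7.27 in wt colon, 6.04 and 5.58 in Apcmin colon tumours and 6.46, 5.92 and 6.82 in LIN28B/Apcmin colon tumours. Small intestinal Cox7b read 7.06 in wt, 6.88 and 7.05 in LIN28B, 7.66 and 7.13 in Apcmin and 6.72 and 7.52 in LIN28B/Apcmin samples. It fell by 1.44 ± 0.34 (adjusted p = 0.0174). Cox6c read 12.43 and 12.24 in wt colon, 11.56 and 10.8 in Apcmin colon tumours and 11.79, 11.59 and 11.69 in LIN28B/Apcmin colon tumours. Small intestinal Cox6c read 11.61 in wt, 11.56 and 11.77 in LIN28B, 12.23 and 11.99 in Apcmin and 10.97 and 11.83 in LIN28B/Apcmin samples. It fell by 1.16 ± 0.3 (adjusted p = 0.0281), and its Apcmin replicates differed from each other by more than those of the other colon groups.

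Cox4i1, a subunit around the catalytic core, read 13.51 and 13.53 in wt colon, 13.05 and 13.24 in Apcmin colon tumours and 13.13, 13.27 and 13.19 in LIN28B/Apcmin colon tumours. Small intestinal Cox4i1 read 13.35 in wt, 13.4 and 13.21 in LIN28B, 13.43 and 13.4 in Apcmin and 13.27 and 13.52 in LIN28B/Apcmin samples. The tumours were below wt colon, with differences of -0.38 ± 0.17 and -0.33 ± 0.16 that were not called. Cox5a read 13.27 and 13.21 in wt colon, 12.85 and 12.81 in Apcmin colon tumours and 13.01, 12.92 and 12.77 in LIN28B/Apcmin colon tumours. Small intestinal Cox5a read 13.31 in wt, 13.16 and 13.13 in LIN28B, 13.26 and 13.12 in Apcmin and 12.86 and 12.75 in LIN28B/Apcmin samples. It showed the same order without a call. Cox5b read 13.71 and 13.88 in wt colon, 13.36 and 13.39 in Apcmin colon tumours and 13.18, 13.23 and 13.01 in LIN28B/Apcmin colon tumours. Small intestinal Cox5b read 13.6 in wt, 13.73 and 13.52 in LIN28B, 13.36 and 13.33 in Apcmin and 13.49 and 13.31 in LIN28B/Apcmin samples. Cox5b fell by 0.65 ± 0.16 in LIN28B/Apcmin colon tumours (adjusted p = 0.0124).

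Cox6b1, on the side of the intermembrane space, has 2 probes. Probe ILMN_1254971 read 13.25 and 13.55 in wt colon, 13.01 and 13.3 in Apcmin colon tumours and 12.88, 12.88 and 12.61 in LIN28B/Apcmin colon tumours. Its small intestinal readings were 13.44 in wt, 13.39 and 13.37 in LIN28B, 13.59 and 13.41 in Apcmin and 13.18 and 13.42 in LIN28B/Apcmin samples. Probe ILMN_2616405 read 12.86 and 12.89 in wt colon, 12.46 and 12.54 in Apcmin colon tumours and 12.38, 12.31 and 12.37 in LIN28B/Apcmin colon tumours, and in the small intestine 13.05 in wt, 12.85 and 12.78 in LIN28B, 12.96 and 12.87 in Apcmin and 12.73 and 12.81 in LIN28B/Apcmin samples. Both fell in LIN28B/Apcmin colon tumours (-0.61 ± 0.18, adjusted p = 0.0304, and -0.52 ± 0.14, adjusted p = 0.0231). Cox6b2, the testis isoform, read 5.81 and 6.03 in wt colon, 5.79 and 5.86 in Apcmin colon tumours and 5.85, 6.15 and 5.55 in LIN28B/Apcmin colon tumours. Small intestinal Cox6b2 read 5.77 in wt, 5.38 and 4.95 in LIN28B, 5.42 and 5.9 in Apcmin and 5.5 and 6.29 in LIN28B/Apcmin samples. It was not called, and its colon groups overlapped.

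Complex V, the ATP synthase, had 0 of 16 members called by limma in Apcmin colon tumours (5 at an unadjusted p under 0.05, median -0.34), and 1 lower and 1 higher in LIN28B/Apcmin colon tumours (median -0.29). Of all probes 6.89% were called lower and 6.07% higher in the former, and 12.6% and 12.5% in the latter. With 16 probes, counts this small lie near those shares. Atp5a1, the alpha subunit of the catalytic head, read 9.94 and 9.76 in wt colon, 8.8 and 8.79 in Apcmin colon tumours and 9.27, 9.76 and 10.49 in LIN28B/Apcmin colon tumours. Small intestinal Atp5a1 read 9.91 in wt, 9.61 and 9.79 in LIN28B, 10.03 and 9.73 in Apcmin and 9.86 and 10.26 in LIN28B/Apcmin samples. Apcmin colon tumours were below all other arrays (-1.05 ± 0.33 against wt colon, adjusted p = 0.0564), while LIN28B/Apcmin colon tumours spread from below to above wt. Atp5b, the catalytic beta subunit, read 14.54 and 14.54 in wt colon, 14.22 and 14.54 in Apcmin colon tumours and 14.18, 14.26 and 14.62 in LIN28B/Apcmin colon tumours. Small intestinal Atp5b read 14.54 in wt, 14.54 and 14.5 in LIN28B, 14.4 and 14.47 in Apcmin and 14.47 and 14.31 in LIN28B/Apcmin samples. Atp5b overlapped between the colon groups.

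Atp5c1, the gamma subunit that turns in the head, read 12.95 and 12.89 in wt colon, 12.38 and 12.22 in Apcmin colon tumours and 12.5, 12.59 and 12.11 in LIN28B/Apcmin colon tumours. Small intestinal Atp5c1 read 13.08 in wt, 12.97 and 12.83 in LIN28B, 12.98 and 12.77 in Apcmin and 12.57 and 12.57 in LIN28B/Apcmin samples. Its colon tumour arrays lay below wt without a call (-0.62 ± 0.2, adjusted p = 0.0658, and -0.52 ± 0.18, adjusted p = 0.057). Atp5o, the stalk subunit that confers oligomycin sensitivity, read 8.59 and 8.66 in wt colon, 8.54 and 8.57 in Apcmin colon tumours and 8.86, 9.14 and 8.58 in LIN28B/Apcmin colon tumours. Small intestinal Atp5o read 9.51 in wt, 9.25 and 9.35 in LIN28B, 8.9 and 9.01 in Apcmin and 8.84 and 9.06 in LIN28B/Apcmin samples. Its wt small intestinal value was the highest of the 14.

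Atp5g1, Atp5g2 and Atp5g3 encode the same mature c subunit of the rotor ring. Atp5g1 read 12.63 and 12.8 in wt colon, 12.2 and 12.33 in Apcmin colon tumours and 12.06, 12.34 and 12.36 in LIN28B/Apcmin colon tumours. Small intestinal Atp5g1 read 13.03 in wt, 12.81 and 12.57 in LIN28B, 12.6 and 12.72 in Apcmin and 12.51 and 12.39 in LIN28B/Apcmin samples. Atp5g1 lay lower in all colon tumours than in wt colon, without a call. Atp5g2 read 10.63 and 10.94 in wt colon, 10.58 and 10.53 in Apcmin colon tumours and 10.27, 10.79 and 10.72 in LIN28B/Apcmin colon tumours. Small intestinal Atp5g2 read 10.41 in wt, 10.21 and 10.43 in LIN28B, 10.4 and 10.57 in Apcmin and 10.41 and 11.01 in LIN28B/Apcmin samples. Atp5g2 was below wt colon in Apcmin tumours and overlapped it in LIN28B/Apcmin tumours. Atp5g3 read 14.35 and 14.29 in wt colon, 13.98 and 14.1 in Apcmin colon tumours and 13.97, 14.16 and 13.92 in LIN28B/Apcmin colon tumours. Small intestinal Atp5g3 read 14.31 in wt, 14.37 and 14.24 in LIN28B, 14.29 and 14.4 in Apcmin and 14.24 and 14.2 in LIN28B/Apcmin samples. None of the 3 was called in the colon.

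The called members of complex V were a coupling factor and a small membrane subunit. Atp5j, coupling factor 6, has 2 measured probes. Probe ILMN_2611261 read 8.42 and 8.39 in wt colon, 8.86 and 8.62 in Apcmin colon tumours and 9.21, 9.14 and 8.69 in LIN28B/Apcmin colon tumours and rose by 0.61 ± 0.2 in LIN28B/Apcmin colon tumours (adjusted p = 0.0439). Probe ILMN_2962632 of the same gene read 13.15 and 13.2 in wt colon, 13.19 and 13.07 in Apcmin colon tumours and 13.24, 12.75 and 12.73 in LIN28B/Apcmin colon tumours, without a call. Thus the probes of Atp5j disagreed. Atp5j2, a membrane subunit, fell by 0.58 ± 0.18 (adjusted p = 0.0367) in LIN28B/Apcmin colon tumours.

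Within the tumours of the colon, LIN28B/Apcmin was set against Apcmin to ask what LIN28B adds. Of 98 members 1 rose, against 0.474% of all probes called higher, and limma called 0 lower, against 0.632% of all probes, with 3 members lower and 9 higher at an unadjusted p under 0.05. The median was 0.04, against 0 over all probes. Ndufb9 rose by 0.71 ± 0.15 (adjusted p = 0.0451), and the 3 arrays listed above for it lay above both Apcmin arrays. The call was lost in 11 of 14 runs that each left out 1 array, those without any 1 of the 7 colon arrays among them, and with arrays of 1 title number averaged (adjusted p = 0.34). Next by p, Sdhd differed by 0.82 ± 0.19 (adjusted p = 0.0786) and Atp5a1 by 1.05 ± 0.3 (adjusted p = 0.139), neither called. All 10 assembly factor probes were above 0 (0.06 to 0.47), and limma called 0 of them, with 0 at an unadjusted p under 0.05.

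**Figure D3:**
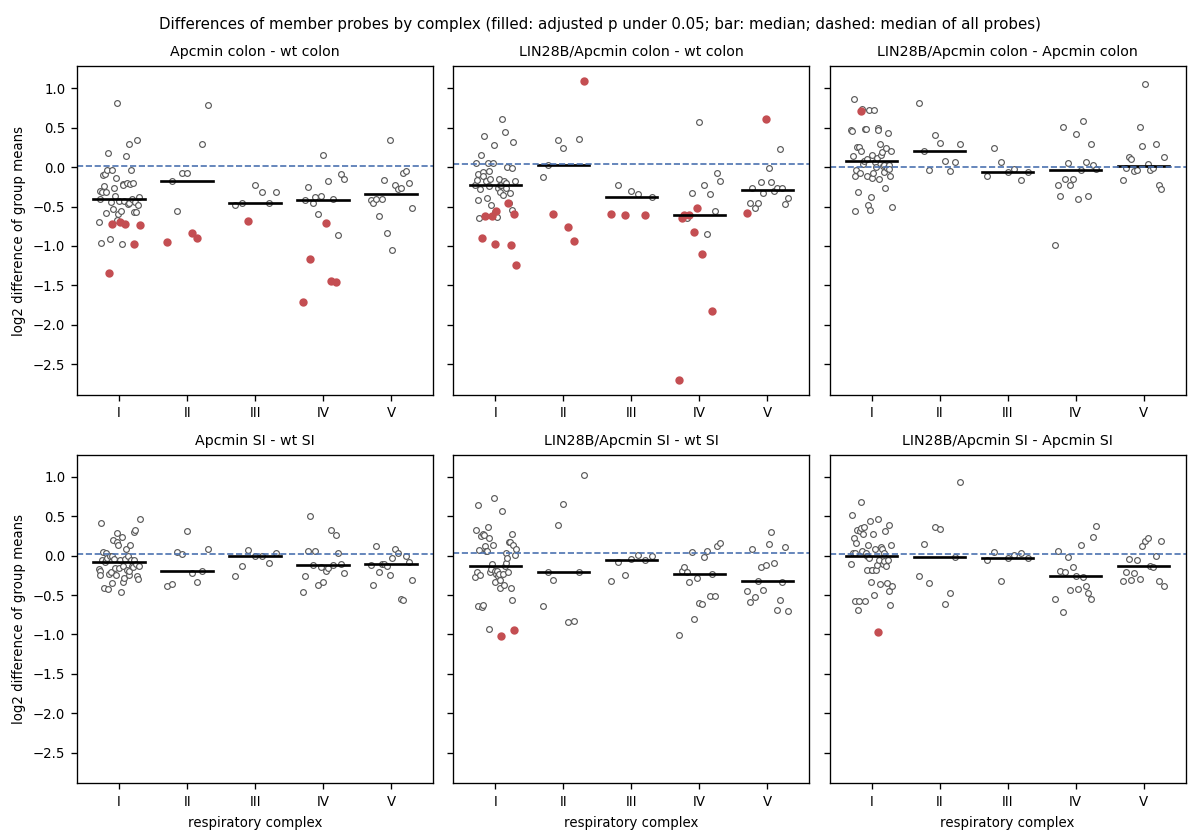
Log2 differences of group means for each member probe (points) by complex in 6 comparisons, with the median of each complex as a bar and the median of all probes as a dashed line; filled points have an adjusted p under 0.05. Bars of complexes I, III, IV and V lie below the dashed line in both colon tumour groups against wt. That of complex IV is at -0.61 in LIN28B/Apcmin. The complex II bar, which mixes subunits with assembly factors, lies below the line in Apcmin and about on it in LIN28B/Apcmin. For LIN28B/Apcmin against Apcmin colon tumours the bars lie close to the line, except that of complex II, which lies above it.

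In the small intestine few members passed the threshold, and wt has a single array, so that the p-values of every comparison with wt assume that it varies like the other groups. For Apcmin tumours against wt, limma called 0 of 98 members, against 0.0729% of all probes. With an unadjusted p under 0.05 there was 1, Atp5o (-0.56 ± 0.25), and the median was -0.11. For LIN28B tumours against wt 0 were called, against 2.72% of all probes, with 8 at an unadjusted p under 0.05 and a median of -0.09. Cox7a1 differed most there (-1.68 ± 0.46, adjusted p = 0.0776), followed by p by Sdhd (-0.77 ± 0.26, adjusted p = 0.13) and Ndufc1 (-0.68 ± 0.24, adjusted p = 0.14). Ndufv3 (probe ILMN_3008277) and Ndufb6 (probe ILMN_1242233) came next to Atp5o in the Apcmin comparison, at 0.46 ± 0.24 and -0.41 ± 0.21, without a call. The probes of these genes disagreed. Ndufv3 was at 0.13 by ILMN_2668977 and -0.46 by ILMN_2688822, and Ndufb6 at 0.33 by ILMN_2914507.

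For LIN28B/Apcmin small intestinal tumours against wt 2 members fell, 2.04% against 2.73% of all probes. These were Ndufab1 (-1.02 ± 0.24, adjusted p = 0.0406) and Ndufc1 (-0.94 ± 0.24, adjusted p = 0.0474, probe ILMN_2983247). Probe ILMN_2983247 of Ndufc1, an accessory subunit of complex I, read 10.75 and 10.81 in wt colon, 10.33 and 10.27 in Apcmin colon tumours and 9.95, 10.35 and 10.25 in LIN28B/Apcmin colon tumours. Its small intestinal signals were 11.17 in wt, 10.51 and 10.48 in LIN28B, 11.05 and 10.69 in Apcmin and 10.2 and 10.27 in LIN28B/Apcmin samples. Ndufb2 was just outside (-0.93 ± 0.25, adjusted p = 0.0582). The median was -0.2 and 64 of 98 members were below 0. With 1 array left out the count was between 0 and 3, and it was 0 without any 1 of the wt or Apcmin colon arrays, either LIN28B array or LIN28B/Apcmin small intestinal replicate 2.

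Ndufab1, read by 1 dim probe, was also the member called when LIN28B/Apcmin tumours of the small intestine were set against those with 1 of the alleles. Against Apcmin tumours it fell by 0.97 ± 0.2, 1.96-fold (adjusted p = 0.0256), where 2.3% of all probes and 1 of 98 members were called lower. Against LIN28B tumours it fell by 1.15 ± 0.2 (adjusted p = 0.0297), where 0.352% of all probes and again 1 member were called lower. In these comparisons the calls were lost in 4 and 7 of 14 runs with 1 array left out, LIN28B/Apcmin replicate 2 and both wt colon arrays among them, and the values stayed below 0. Both LIN28B arrays carry 1 title number, and with such arrays averaged Ndufab1 was not called against LIN28B tumours (adjusted p = 0.181) or wt (adjusted p = 0.0607). Against Apcmin tumours it was (adjusted p = 0.0438). In the colon, the difference between LIN28B/Apcmin and Apcmin ran the other way. The interaction, the colon difference minus the small intestinal one, was 1.47 ± 0.27 for Ndufab1 and missed the threshold (adjusted p = 0.0504). For the interaction 0 of 98 members were called in limma, against 0.346% of all probes, with 9 at an unadjusted p under 0.05. Ndufb2 (1.05 ± 0.28, adjusted p = 0.139) and Sdhd (1.09 ± 0.29, adjusted p = 0.14) followed.

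Over both organs, as the mean of the colon and small intestinal differences, LIN28B/Apcmin against Apcmin tumours gave 1 member called higher, against 2.31% of all probes. Limma called 0 lower, against 2.55% of all probes, with 8 at an unadjusted p under 0.05. Ndufb9 rose by 0.53 ± 0.11 (adjusted p = 0.0228). Ndufa1 (-0.51 ± 0.14, adjusted p = 0.0621) and Ndufaf7 (0.45 ± 0.12, adjusted p = 0.0634) missed the threshold. The Ndufb9 call was lost without Apcmin colon replicate 1 or 2, Apcmin small intestinal replicate 1 or LIN28B/Apcmin small intestinal replicate 2, and with arrays of 1 title number averaged (adjusted p = 0.0961).

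The organs were compared within genotype. In wt tissue the colon stood above the small intestine for 1 member, against 2.55% of all probes. Limma called 0 lower in the colon, against 2.84% of all probes, with 2 at an unadjusted p under 0.05. The member called was Cox8b, at least 2.81-fold higher in the colon, since it was not above background on the wt small intestinal array (adjusted p = 0.0186). The call was lost without wt colon replicate 1 (adjusted p = 0.119) and with arrays of 1 title number averaged (adjusted p = 0.0582). Atp5o (-0.89 ± 0.25, adjusted p = 0.0667) and Ndufv3 (0.78 ± 0.24, adjusted p = 0.0984) followed without a call. The median was -0.02.

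Between Apcmin tumours of the organs, 13 members were lower in the colon, against 8.64% of all probes, and 1 was higher, against 9.89%. The median was -0.3. Cox7a1 was lower by 2.14 ± 0.38 (adjusted p = 0.00324), Cox7b by 1.58 ± 0.34 (adjusted p = 0.00839), Cox7a2 by 1.21 ± 0.27 (adjusted p = 0.0115) and Ndufab1 by 1.11 ± 0.2 (adjusted p = 0.00344). Ndufa5, an accessory subunit of the matrix arm, was lower by both probes (-1.35 ± 0.38 and -0.79 ± 0.24). Its probe ILMN_2691460 read 7.54 and 7.4 in wt colon, 6.62 and 6.35 in Apcmin colon tumours and 6.65, 6.95 and 8 in LIN28B/Apcmin colon tumours, and in the small intestine 7.59 in wt, 7.54 and 7.7 in LIN28B, 8.19 and 7.48 in Apcmin and 7.28 and 7.38 in LIN28B/Apcmin samples. The higher member was Ndufaf7 (0.65 ± 0.18, adjusted p = 0.0323), a methyltransferase that acts in complex I assembly, which read 7.74 and 7.7 in wt colon, 7.87 and 7.93 in Apcmin colon tumours and 7.92, 8.04 and 8.37 in LIN28B/Apcmin colon tumours. Small intestinal Ndufaf7 read 7.67 in wt, 7.96 and 7.99 in LIN28B, 7.3 and 7.2 in Apcmin and 7.91 and 7.96 in LIN28B/Apcmin samples. Without wt colon replicates 1 and 2 the count of 14 became 9 and 9, without Apcmin colon replicates 1 and 2 it was 6 and 3, and without Apcmin small intestinal replicate 1 it was 3.

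Between LIN28B/Apcmin tumours 3 members were lower in the colon, against 6.8% of all probes, and 1 was higher, against 7.8%. Cox7a1 was lower by 2.59 ± 0.35 (adjusted p = 0.000832), Ndufa10 by 0.84 ± 0.2 (adjusted p = 0.0173) and Uqcrc1 by 0.78 ± 0.2 (adjusted p = 0.0252). Ndufa10, an accessory subunit of the matrix side, read 11.47 and 11.65 in wt colon, 11.27 and 11.57 in Apcmin colon tumours and 10.74, 11.23 and 10.86 in LIN28B/Apcmin colon tumours. Small intestinal Ndufa10 read 11.89 in wt, 11.81 and 11.52 in LIN28B, 11.57 and 11.72 in Apcmin and 11.85 and 11.71 in LIN28B/Apcmin samples. The higher member was Ndufaf3 (1.1 ± 0.31, adjusted p = 0.0348), an assembly factor of complex I, which read 6.58 and 6.73 in wt colon, 6.28 and 6.4 in Apcmin colon tumours and 5.96, 6.54 and 7.3 in LIN28B/Apcmin colon tumours. Small intestinal Ndufaf3 read 6.12 in wt, 6.37 and 6.34 in LIN28B, 6.16 and 6 in Apcmin and 5.32 and 5.67 in LIN28B/Apcmin samples. Replicate 3 was the highest of its colon values, and the call was lost without it (0.76), as in 7 other runs with 1 array left out. Without LIN28B/Apcmin small intestinal replicate 2 the count of 4 was 2.

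Whether tumours differ from wt more in the colon than in the small intestine was tested by 2 comparisons added after the values were seen. For Apcmin the colon difference minus the small intestinal one had a median of -0.27 over the members, and 0 were called in limma, against 1.24% of all probes, with 10 at an unadjusted p under 0.05, all below 0. Ndufb9 came closest (-1.1 ± 0.25, adjusted p = 0.0669), then Ndufv3 (-1.2 ± 0.31, adjusted p = 0.107) and Cox8b (adjusted p = 0.109), which was not above background on the wt small intestinal array, so that no size is given. For LIN28B/Apcmin the median was -0.18, with 0 called, against 2.07% of all probes, and 8 at an unadjusted p under 0.05. Ndufv3 came closest there (-1.32 ± 0.3, adjusted p = 0.0503), then Cox8b (adjusted p = 0.0937) and Cox6a2 (adjusted p = 0.155). No size is given for Cox8b and Cox6a2, which were not above background in 3 and 2 of the 4 groups. A difference between the organs was thus not shown for any member.

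Among the 12 genes with more than 1 measured probe, the probes had the same sign for 11 in Apcmin colon tumours and for 8 in LIN28B/Apcmin colon tumours, both against wt. The probe values of a gene differed by a median of 0.17 and 0.26 on the log2 scale, and by up to 0.72 and 0.98.

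The 13 annotated probes that did not pass were detected on 0 arrays. They leave 7 genes with no measured probe: the complex I core subunit Ndufs1, the Rieske protein Uqcrfs1, Uqcrq, Cox4i2, Cox7b2, Cox8c and Atp5k. For 6 of the 13, another probe of the gene was measured (Ndufaf7, with 2 such probes, Ndufb11, Sdhc, Cox6b2 and Atp5j). Of the 98 that passed, 95 were detected on every array where they had a signal. The others were Cox8b, Cox6a2 and an Sdhb probe. Sdha and Ndufa4l2 were not analysed here.

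Neighbouring mitochondrial pathways were counted from lists, to be read against 6.89% and 12.6% of all probes called lower in Apcmin and LIN28B/Apcmin colon tumours. Of 16 genes of the citric acid cycle and pyruvate dehydrogenase, 2 fell in Apcmin colon tumours (median -0.38) and 5 in LIN28B/Apcmin colon tumours (median -0.29), and 0 rose. Citrate synthase (Cs) fell by 1.36 ± 0.24 in the latter (adjusted p = 0.00223), and Dld, a subunit of pyruvate dehydrogenase and related complexes, by 1.1 ± 0.22 and 0.88 ± 0.22. Of 16 electron carriers and other respiratory enzymes 5 fell in each and 0 rose, with medians of -0.44 and -0.35. Cycs, cytochrome c itself, fell by 1.59 ± 0.3 in Apcmin colon tumours (adjusted p = 0.00599), and Sqor, which feeds electrons from sulphide to ubiquinone, by 1.34 ± 0.21 and 0.93 ± 0.19.

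Of 28 respiratory assembly factors, 1 fell in Apcmin (3.57%) and 4 fell (14.3%) and 1 rose in LIN28B/Apcmin colon tumours, shares below or near those of all probes. Surf1, needed to build complex IV, fell in both (-0.97 ± 0.22 and -0.69 ± 0.2), and Cox18, which helps insert a complex IV subunit, rose in the latter (0.75 ± 0.2, adjusted p = 0.0202). Of 17 genes of mitochondrial biogenesis and transcription, 2 fell in Apcmin and 2 fell and 2 rose in LIN28B/Apcmin colon tumours, 11.8% lower in each. Ppargc1b, a coactivator of mitochondrial biogenesis, fell in both (-2.04 ± 0.37 and -2.38 ± 0.33, adjusted p = 0.00443 and 0.000493). Gabpb1, a subunit of the ETS factor GABP, rose by 0.59 ± 0.19 in LIN28B/Apcmin tumours (adjusted p = 0.0468). Of 18 genes of the outer membrane, import and chaperones, 1 and 2 fell, and the medians of -0.07 and 0.08 lay near 0.

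Markers of some cell types fell in colon tumours as the members did, and those of others rose. Of 9 smooth muscle markers 7 fell in Apcmin and 9 in LIN28B/Apcmin colon tumours, with medians of -2.66 and -3.37. Their summed intensity was 45700 to 47300 in wt colon, 11500 to 13400 in Apcmin and 6550 to 8920 in LIN28B/Apcmin colon tumours. In the small intestine it was 21500 in wt, 7980 to 10900 in LIN28B, 13100 to 15900 in Apcmin and 2350 to 7230 in LIN28B/Apcmin samples. Cox7a1 fell beside these markers in the colon. In the small intestine 5 of the 9 fell in LIN28B/Apcmin against Apcmin tumours (median -1.62), where Cox7a1 differed by -0.55 ± 0.38 (adjusted p = 0.418). Against the single wt small intestinal array, Cox7a1 differed by -1.68 in LIN28B, -0.46 in Apcmin and -1.01 in LIN28B/Apcmin samples. The marker sums given above were also lower than wt in each of these groups.

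**Figure D4:**
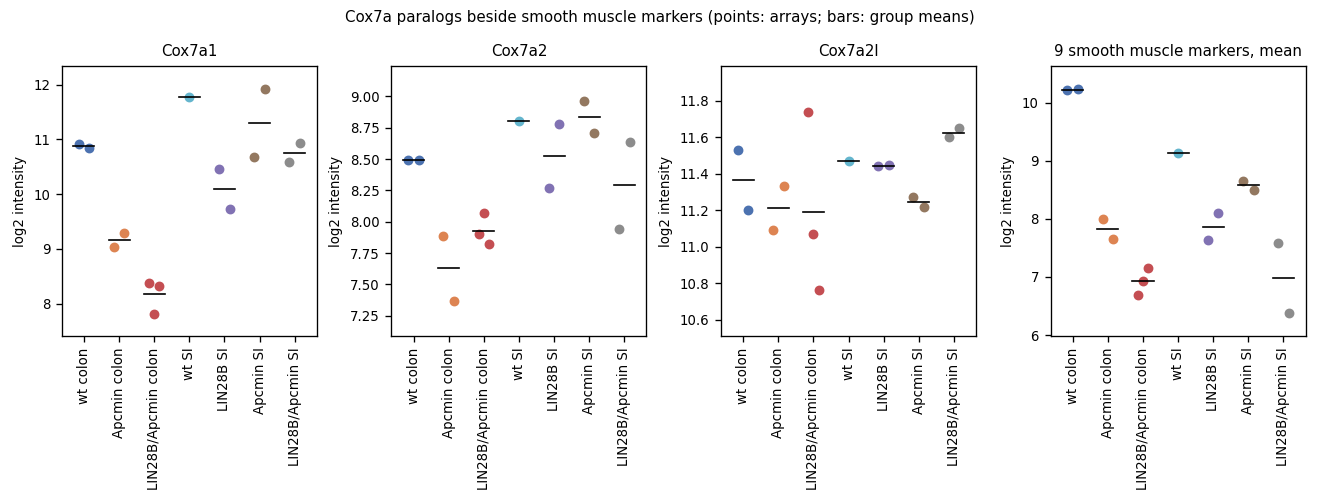
Log2 intensity of Cox7a1, Cox7a2 and Cox7a2l and the mean over 9 smooth muscle markers on each array (points), with group means as bars; each panel has its own vertical axis. Cox7a1 and the markers step down alike over the colon groups. In LIN28B/Apcmin small intestinal tumours Cox7a1 reads 10.59 and 10.93, against 11.77 in wt. The marker means there are 7.59 and 6.38, against 9.14 in wt.

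Of 8 striated muscle markers 2 fell in Apcmin (median 0.16) and 3 in LIN28B/Apcmin colon tumours (median 0.13), and Tnnt3 and Myh4 were detected on fewer than 2 arrays. Their summed intensity was 466 to 774 in wt colon, 427 to 537 in Apcmin and 360 to 527 in LIN28B/Apcmin colon tumours. Of 3 adipocyte markers 1 fell, Cidec, and Plin1, Fabp4, Retn and Ucp1 were detected on fewer than 2 arrays. The adipocyte sum was 121 to 312 in wt colon, 73.7 to 85.1 in Apcmin and 68.9 to 77.7 in LIN28B/Apcmin colon tumours, beside the fall of Cox8b. In the small intestine it was 653 in wt, 296 to 326 in LIN28B, 731 to 1850 in Apcmin and 475 to 583 in LIN28B/Apcmin. The striated muscle sum was 860 in wt small intestine. Cox8b was detected in the small intestine only on Apcmin replicate 2.

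Of 8 colonocyte markers 6 and 8 fell (medians -3.2 and -5.22), and of 7 general epithelial markers 1 fell in each (medians -0.33 and -0.45). The epithelial sum was 38300 to 39200 in wt colon, 27700 to 30500 in Apcmin and 23600 to 32400 in LIN28B/Apcmin colon tumours. Myeloid markers rose for 4 of 5 in both (medians 4.9 and 4.94), red blood cell markers for 3 and 4 of 4, and proliferation markers for 6 of 9 in both. The goblet cell sum was 49400 to 55300 in wt colon, 24300 to 28900 in Apcmin and 6160 to 9120 in LIN28B/Apcmin colon tumours. For fibroblast and matrix markers it was 8680 to 8770, 8930 to 9530 and 6520 to 9200 in the same order. For endothelial markers it was 1360 to 1370, 1900 to 2170 and 1400 to 2180. The part of these cell types in the differences of the members was not tested.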

How the data were processed

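RNA of 16 mouse samples was extracted with TRIZOL, amplified to biotin-labelled cRNA and hybridised to Illumina bead arrays, 1 array per sample, per the labels' protocols. The authors deposited an average signal intensity per probe and array, with no background subtraction or normalization visible in the values, and a detection p-value per probe and array, per the file headers. They also deposited a value table, of which each column is a linear transform of the intensity of its array, with the method not given in the sources used here. The file's 25697 probes leave out 2 lines without a probe ID, and 23978 of them name 1 gene.

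Arrays with under 20% of probes detected were left out (2 of 16) and signals under 25 were set to missing. In R 4.3.3 with limma 3.58.1, background was corrected by normexp with detection p-values (nec, offset 16), followed by log2 and quantile normalization. Probes detected (p-value under 0.05) on at least 2 of 14 arrays were fitted with 7 group means (lmFit, eBayes; residual df 7, prior df 4.1), and limma p-values were adjusted by Benjamini-Hochberg over all probes within each of 13 comparisons and 2 added later. Values are log2 intensities, errors are SE, and levels are not set between probes. A probe undetected on every array of a group has only a bound, set from the lowest detected signal of each array. The scripts were tested on simulated data. The number of arrays limits the precision.

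Called members are named by a rule: the 5 of largest rise and the 5 of largest fall in each comparison, or the 3 of smallest p where fewer than 3 were called, with isoform sets and core subunits given whatever they did. Other called members of the colon comparisons with wt are named too. The members and lists were chosen with earlier results of these data known. Replicate numbers in the labels did not pair samples: over 15 pairs of groups the correlation of same-numbered deviations was -0.0325 to 0.356, above 0.1 in 3. Alternatives were all 16 arrays, low signals kept, no background correction, median scaling, no detection filter, 1 probe per gene, title or label numbers as a block or averaged, the deposited value table, and each array left out. Promoter letters came from RefSeq (GRCm38.p6). Figures were drawn with matplotlib 3.10.9.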

Additional observations from a re-analysis of the deposited data

How the results depend on the processing

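Counts are of called members. The share of all probes called under each setting is not given here, so a change in count is not a result about the members alone. On all 16 arrays with signals under 25 kept, the count was 0 in each of the 10 comparisons that had calls, Ndufb9 in LIN28B/Apcmin colon tumours against wt turned to 0.11 (adjusted p = 0.985) and Ndufc1 in LIN28B/Apcmin small intestinal tumours against wt to 0 (adjusted p = 0.999). The cause was not tested. With signals under 25 kept on 14 arrays, it was 0 for LIN28B/Apcmin against Apcmin colon tumours and for LIN28B/Apcmin small intestine against wt, Apcmin and LIN28B, and 7 between Apcmin tumours of the organs. Without background correction it was 4 for LIN28B/Apcmin against Apcmin small intestine, 2, 22 and 10 between the organs in wt, Apcmin and LIN28B/Apcmin, 4 over both organs and 1 in each added interaction. Median scaling gave 0 for LIN28B/Apcmin against Apcmin colon, 56 for LIN28B/Apcmin colon against wt, 2 for LIN28B/Apcmin against LIN28B small intestine and 18 between LIN28B/Apcmin organs. It shifted the median of all probes by 0.13 in LIN28B against wt small intestine, by -0.18 in LIN28B/Apcmin against LIN28B and by 0.14 between Apcmin organs. Without a detection filter the counts were 2 for LIN28B/Apcmin against Apcmin small intestine, 2 between wt organs, 9 between LIN28B/Apcmin organs, 2 over both organs, and 1 and 2 in the added interactions. With 1 probe per gene they were 1 for LIN28B/Apcmin small intestine against wt and 1 in the LIN28B interaction.

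With title numbers taken as random blocks (replicate block, consensus correlation -0.0545), 1 member was called in the LIN28B interaction and 1 in the added LIN28B/Apcmin interaction. With the label's replicate number as a block, the count was 0 for LIN28B/Apcmin against Apcmin colon, 6 and 3 for LIN28B/Apcmin small intestine against wt and Apcmin, 2 between wt organs and 2 over both organs, and the label numbers do not pair the samples. With arrays of 1 title number averaged it was 0 for LIN28B/Apcmin against Apcmin colon, 6 for LIN28B/Apcmin colon against wt, 0 for LIN28B/Apcmin small intestine against wt and against LIN28B, 0 between wt organs, 2 between LIN28B/Apcmin organs and 0 over both. With the authors' deposited values it was 36 and 53 for Apcmin and LIN28B/Apcmin colon against wt, 3 and 0 for LIN28B/Apcmin small intestine against Apcmin and LIN28B, 48 and 37 between Apcmin and LIN28B/Apcmin organs, 6 over both, and 2 and 1 in the added interactions. There Cox5a was at -0.47 (adjusted p = 0.0318) and Ndufa13 at -0.55 (adjusted p = 0.0461) between LIN28B/Apcmin organs, where the reported fit had values above 0. The cause of these shifts was not tested.

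With each array left out in turn, counts ran from 1 to 19 for Apcmin colon against wt, 0 to 1 for LIN28B/Apcmin against Apcmin colon, 4 to 28 for LIN28B/Apcmin colon against wt, 0 to 0 for Apcmin, 0 to 1 for LIN28B and 0 to 3 for LIN28B/Apcmin small intestine against wt, 0 to 2 for LIN28B/Apcmin small intestine against Apcmin and 0 to 2 against LIN28B. They ran from 0 to 2, 3 to 18 and 2 to 5 between wt, Apcmin and LIN28B/Apcmin organs, 0 to 4 over both organs, 0 to 2 in the LIN28B interaction, and 0 to 0 and 0 to 1 in the added ones. Calls kept in all these runs were Ndufb9 for Apcmin colon against wt, 1 probe each of Ndufv3, Cox6a1, Cox7a1 and Cox8b for LIN28B/Apcmin colon against wt, Cox7a1 and Ndufab1 between Apcmin organs and Cox7a1 between LIN28B/Apcmin organs. The member median stayed below 0 under every other setting for Apcmin (-0.55 to -0.37) and LIN28B/Apcmin colon (-1.43 to -0.26) against wt. On all 16 arrays it was -0.98 for LIN28B/Apcmin against Apcmin colon, 1.25, 1.26 and 1.18 for Apcmin, LIN28B and LIN28B/Apcmin small intestine against wt, 1.34 between wt organs, -1.18 between LIN28B/Apcmin organs, -0.49 over both organs, -0.79 in the LIN28B interaction and -1.61 and -2.45 in the added ones, against reported medians between -0.27 and 0.1. Median scaling gave -0.24 for LIN28B/Apcmin against Apcmin colon and -0.49 in the added LIN28B/Apcmin interaction. Comparisons with wt small intestine have no value without its only array, and leaving out whole title numbers was not run. Of the members, Cox8b, Cox6a2 and 1 Sdhb probe lay near background and were undetected on some arrays. Other probes were dim but detected on every array, among them that of Ndufab1 (5.05 and 5.36 in LIN28B/Apcmin small intestinal samples).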
